A study of Homo sapiens with 2 samples.

Results

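The 9 genes described here are the AP-1 genes FOS, FOSL1, FOSL2, JUN, JUNB and JUND and the immediate early genes EGR1, IER2 and IER3. They were taken by exact gene name from a table of 12936 named genes, and each was found on a single line. RNA-seq was made from A549, an established human lung adenocarcinoma line, in a library whose genotype label is MYOCD knockdown (its title is written as MYOCD-/-) and in a library labelled wild type. There was 1 library per group, so no difference below has a replicate error or a test, and every value describes these 2 libraries only. Both were grown with 10% serum, and the sample labels give doxycycline for 72 h for both, whereas the design text speaks of untreated wild type cells. If the wild type cells had no drug, knockdown and drug cannot be told apart. The sources used here do not say how the knockdown was made or whether it is a single clone.

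AP-1 is a dimeric transcription factor made of a FOS protein and a JUN protein, or of a pair of JUN proteins, joined through a leucine zipper. Growth factors, serum and stress switch on the immediate early genes within minutes, without new protein synthesis, through ERK and other MAP kinases that act on serum response factor (SRF) and its ternary complex partners. FOS and EGR1 are the classic SRF targets of this kind, while FOSL1 accumulates later and persists where ERK signalling is sustained. Myocardin, the product of MYOCD, is a coactivator of SRF in smooth and cardiac muscle.

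The unit is RPKM, in which reads are divided by the length of the transcript and the depth of the library, so levels of different genes in a library can be set side by side. A difference is log2((knockdown RPKM + 1) / (wild type RPKM + 1)), positive where the knockdown library was higher. It was computed for the 12158 named genes whose 2 libraries averaged 1 RPKM or more, all 9 members among them. The central 95% of these genes ran from -0.64 to 0.51, with a median of 0.01. MYOCD itself was listed at 0.400 RPKM in the knockdown library and 0.881 RPKM in the wild type library, near the lowest values in the table. Its partner SRF had 8.82 RPKM in the knockdown library and 9.23 RPKM in the wild type library. Of 6 epithelial and lung cancer markers, KRT8 and KRT18 were abundant in both libraries, KRT8 at 1521 RPKM in the knockdown library and 1545 RPKM in the wild type one. The others were far lower. In the knockdown library CDH1 had 22.5 RPKM, KRT19 7.69 RPKM, CEACAM6 2.44 RPKM and EPCAM 2.15 RPKM. In the wild type library CDH1 had 23.8 RPKM, KRT19 7.70 RPKM, CEACAM6 2.35 RPKM and EPCAM 2.24 RPKM. Of the 5 alveolar markers looked for, NAPSA alone was among the values used here, at 0.771 RPKM in the knockdown library and 1.27 RPKM in the wild type library.

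FOSL1 and JUN were the members with the largest differences, and both were higher in the knockdown library. IER3, EGR1, FOS, IER2 and JUNB were lower to differing degrees, and JUND was nearly level. At a size rule of 1.5-fold, 2 of 9 members were higher (FOSL1 and JUN), against 1.65% of all genes, and 1 of 9 was lower (IER3), against 3.20% of all genes. By a smaller rule, 2 of 9 were higher by at least 25%, against 7.99% of all genes, and 4 of 9 (IER3, EGR1, FOS and IER2) were at 80% or less of the wild type value, against 10.6% of all genes, both on the RPKM + 1 scale. At 2-fold, 0 of 9 members differed in either direction, against 0.65% of all genes higher and 0.72% lower. The median difference of the members was -0.27, which sits between 2 large positive values and a run of negative ones and so describes no single member well.

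**Figure D1:**
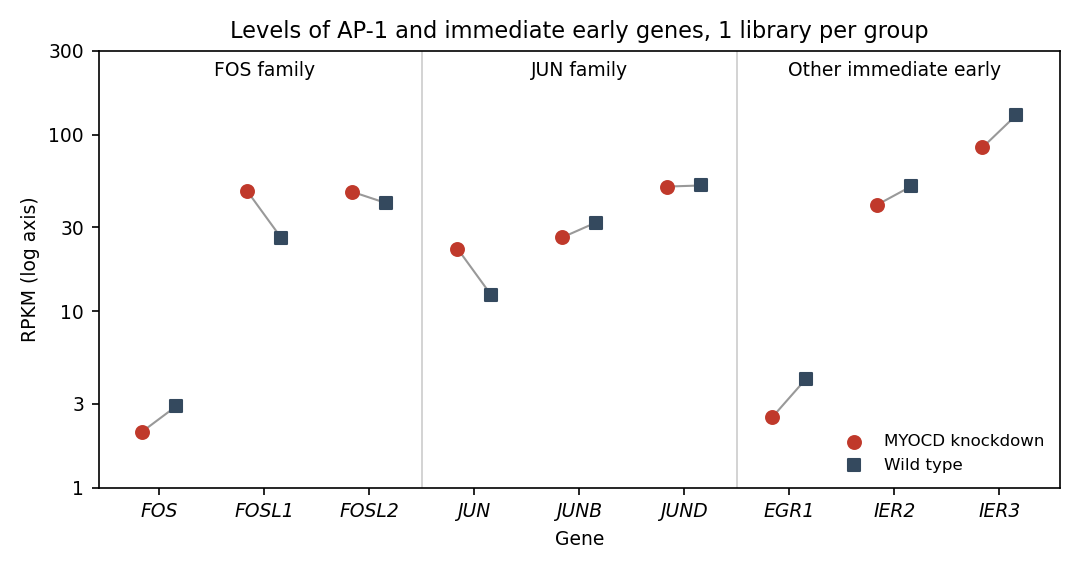
RPKM of each of the 9 genes on a log axis, with the MYOCD knockdown library as a circle and the wild type library as a square to its right, joined by a line; each point is 1 library. FOSL1 and JUN stand higher in the knockdown library, at 47.9 and 22.7 RPKM, and IER3 is the highest gene in both libraries.

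The sequences that bear on SRF and AP-1 control are shown first. Promoters of 7 of the 9 members were matched in a RefSeq promoter table (GRCh38.p14), where the 250 bases before the annotated start were searched on both strands. FOSL1 and IER3 were not matched. The CArG box, the element that SRF binds, was found in the promoter of 1 member, EGR1, which held a pair of them. It occurs in 1.16% of all 35116 promoters in the table. The EGR1 promoter at chr5:138465229-138465478, plus strand, is printed with its CArG boxes in capitals.
EGR1: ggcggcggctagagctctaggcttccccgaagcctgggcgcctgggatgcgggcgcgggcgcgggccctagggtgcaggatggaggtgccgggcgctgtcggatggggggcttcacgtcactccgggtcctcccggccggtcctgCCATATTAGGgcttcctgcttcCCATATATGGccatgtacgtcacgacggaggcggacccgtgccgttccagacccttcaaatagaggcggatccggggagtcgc

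These boxes begin 105 and 83 bases before the start. The FOS promoter held no CArG box in this window, which says only that these letters are not within 250 bases of the annotated start. The usual AP-1 site TGACTCA was found in 0 of the 7 promoters, and in 4.20% of all promoters. JUN held the variant TGACATCA, present in 2.38% of all promoters, beginning 67 bases before the start, and next to it a MEF2 site, present in 2.80% of all promoters. JUND held a CRE, TGACGTCA, the element bound by CREB and ATF factors, which occurs in 1.65% of all promoters. Among the 13487 promoters of measured genes the shares were 2.79% for TGACTCA, 1.28% for TGACATCA and 2.63% for the CRE. There the MEF2 site had 1.5% and the CArG box 1.04%. The JUN window is chr1:58784089-58784118 and the JUND window chr19:18281804-18281833, both on the minus strand, with the AP-1 variant and the MEF2 site of JUN and the CRE of JUND in capitals. They are shown because JUN was one of the higher genes and JUND the most level one. GENCODE places the start of JUN further upstream than RefSeq does, and there the JUN window lies in the exon.
JUN: ggggTGACATCAtgggCTATTTTTAGgggt
JUND: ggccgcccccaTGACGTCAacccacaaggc

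A match is a description of letters, and no binding was measured in these data.

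Among the FOS family, FOSL1, which encodes FRA-1, a FOS protein without the transactivation domain of FOS that ERK signalling stabilises, had 47.9 RPKM in the knockdown library and 26.2 RPKM in the wild type library. The raw ratio was 1.83 and the log2 difference 0.85, and 98 of the other genes tested had a higher one. Of the 500 genes closest to FOSL1 in mean level, between 33.6 and 41.3 RPKM, 3 (0.6%) differed by as much in either direction. In level, FOSL1 stood above 84.5% of genes in the knockdown library and above 72.6% in the wild type library. The gene lies on chromosome 11, minus strand, from 65892049 to 65900573 (GRCh38, GENCODE release 29), and no other annotated gene overlaps it. A bulk library cannot tell a change in the share of cells that make a message from a change in its amount per cell.

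FOSL2 (chromosome 2, 28392448 to 28417312, plus strand), which encodes FRA-2, a close relative that also lacks the FOS transactivation domain, had 47.6 RPKM in the knockdown library and 41.1 RPKM in the wild type library. Its difference of 0.21 is well inside the range of most genes, and 31% of the 500 genes nearest in level differed by as much. The libraries were also rescaled to the same summed RPKM over all loci, which moved the median of all genes to -0.17. The FOSL2 difference was then 0.01. Loci with no gene name, left out elsewhere, held 49.5% of that sum in the knockdown library and 42.3% in the wild type library. FOS, the founding member of the family (chromosome 14, 75278774 to 75282230, plus strand), was the lowest of the 9 genes in both libraries, with 2.08 RPKM in the knockdown library and 2.89 RPKM in the wild type library. The FOS difference was -0.34, and 30% of the 500 genes nearest in level differed by as much. FOSB, a FOS relative outside the 9, was listed at 0.906 RPKM in the knockdown library and 0.915 RPKM in the wild type library.

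The make-up of the FOS family differed between the libraries. FOSL1 made up 49.1% of the summed RPKM of FOS, FOSL1 and FOSL2 in the knockdown library and 37.3% in the wild type library. FOSL2 made up 48.8% in the knockdown library and 58.6% in the wild type library, and FOS made up 2.14% in the knockdown library and 4.12% in the wild type library. FOSL1 was about level with FOSL2 in the knockdown library, at a ratio of 1.01, while in the wild type library the ratio was 0.637. The family sum was 97.6 RPKM in the knockdown library and 70.2 RPKM in the wild type one, and FOSL1 accounts for 21.7 of the 27.3 RPKM between them. The log2 difference of the sum was 0.47, or 0.27 with the libraries rescaled to equal sums.

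**Figure D2:**
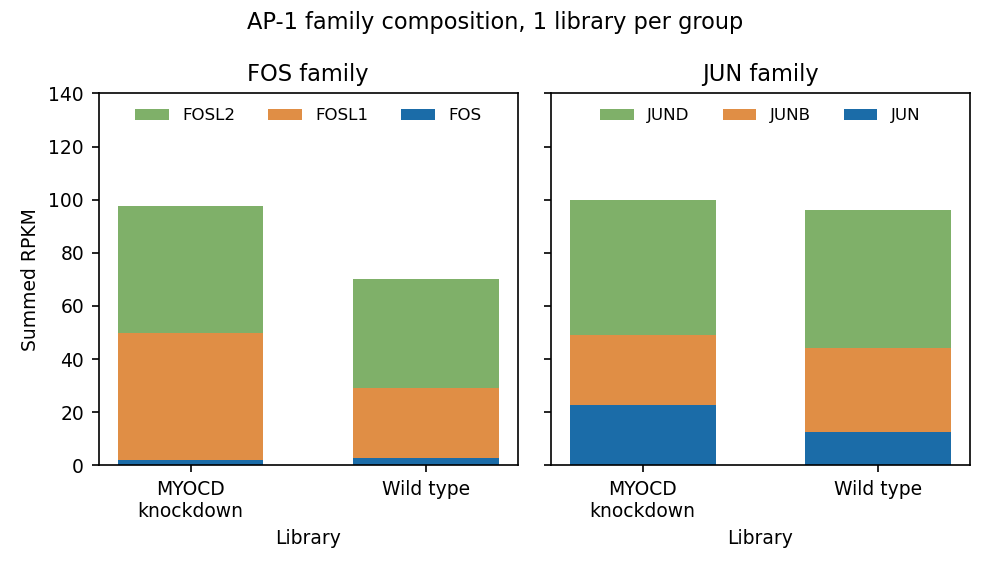
Summed RPKM of the FOS family (left) and the JUN family (right) in the MYOCD knockdown library and the wild type library, each bar stacked by gene; each bar is 1 library. The FOS family bar is taller in the knockdown library, mostly through FOSL1, while the JUN family bars reach 99.99 RPKM in the knockdown library and 96.0 RPKM in the wild type library, with a larger JUN part in the knockdown library.

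In the JUN family, JUN, the strongest activator of its family and a partner of all FOS proteins, had 22.7 RPKM in the knockdown library and 12.4 RPKM in the wild type library. The raw ratio was 1.83, the same as for FOSL1 to 3 digits, and the log2 difference was 0.82. Of the 500 genes nearest to JUN in mean level, between 16.4 and 18.7 RPKM, 3 (0.6%) differed by as much. JUN lies on chromosome 1, minus strand, from 58780788 to 58784327, overlapped by no other annotated gene. JUN activates its own promoter through AP-1 sites of the kind printed above, which is background and not measured here.

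JUNB, a JUN protein that often opposes JUN at shared sites, had 26.3 RPKM in the knockdown library and 31.9 RPKM in the wild type library. The JUNB difference was -0.27, and 20.6% of the genes nearest in level differed by as much. JUNB lies inside the span of HOOK2 on the opposite strand, and HOOK2 had 4.86 RPKM in the knockdown library and 5.90 RPKM in the wild type library. Since the use of strand in the counting is not stated, reads of JUNB and HOOK2 may not have been told apart. JUND, the JUN protein that cells make steadily even when quiescent, had 51.0 RPKM in the knockdown library and 51.7 RPKM in the wild type library. With a difference of -0.02 it was the most level member, and 89.6% of the genes nearest to it differed by as much or more.

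JUN was the member of its family that differed most, with 10.3 RPKM more in the knockdown library, while the level of JUNB differed by -5.60 RPKM. JUN made up 22.7% of the summed RPKM of JUN, JUNB and JUND in the knockdown library and 12.9% in the wild type library. JUNB made up 26.3% in the knockdown library and 33.2% in the wild type library, and JUND 51.0% in the knockdown library and 53.9% in the wild type library. The ratio of JUN to JUNB was 0.864 in the knockdown library and 0.390 in the wild type library. The family sum was 99.99 RPKM in the knockdown library and 96.0 RPKM in the wild type library, a log2 difference of 0.06 that turned to -0.14 when the libraries were rescaled to equal sums. The FOS family sum was 0.976 of the JUN family sum in the knockdown library and 0.732 of it in the wild type library, a ratio that no rescaling of a library can change.

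The remaining members were all lower in the knockdown library. IER3, also called IEX-1, a stress- and ERK-induced regulator of cell survival, was the most abundant of the 9, with 84.9 RPKM in the knockdown library and 129 RPKM in the wild type library. The IER3 difference was -0.60, just past the 1.5-fold rule, and 4.4% of the 500 genes nearest in level differed by as much. EGR1, a zinc finger factor induced within minutes by serum, had 2.52 RPKM in the knockdown library and 4.15 RPKM in the wild type library. The EGR1 raw ratio was 0.607, a larger relative difference than that of IER3, but with the pseudocount of 1 its difference was -0.55, just inside the 1.5-fold rule. Of the genes nearest to EGR1 in level, 10.4% differed by as much. IER2, a small nuclear early response protein, had 40.3 RPKM in the knockdown library and 51.1 RPKM in the wild type library, a difference of -0.34 that 12.2% of the genes nearest in level matched or passed.

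FOS and EGR1, named above as classic SRF targets, were at the bottom of the order in both libraries, below 5 RPKM. The other 7 members lay above 12 RPKM in each. Whether SRF bears on these levels was not tested. In the knockdown library the next gene up, JUN, was 9.02 times EGR1, and in the wild type library it was 2.99 times EGR1. In the knockdown library the order from the top was IER3, JUND, FOSL1, FOSL2, IER2, JUNB, JUN, EGR1 and FOS. The levels of FOSL1 and FOSL2 were within a ratio of 1.01, and those of JUND and FOSL1 within 1.06. In the wild type library the order was IER3, JUND, IER2, FOSL2, JUNB, FOSL1, JUN, EGR1 and FOS, with JUND and IER2 within a ratio of 1.01. With no replicate, no spread can be set for neighbours in these orders. FOSL1 changed its place most, standing at rank 3 in the knockdown library and rank 6 in the wild type library.

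**Figure D3:**
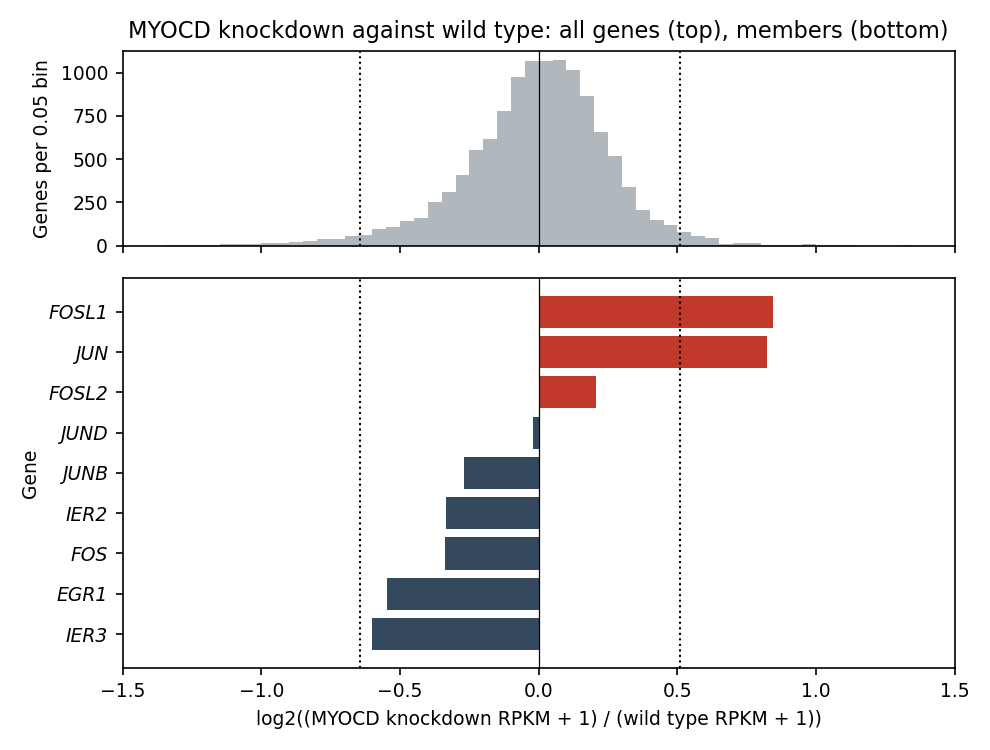
Top: number of genes per bin of 0.05 in log2 difference, MYOCD knockdown over wild type, for 12158 genes, of which 107 lie beyond the axis. Bottom: the 9 members, with dotted lines at the ends of the central 95% of all genes (-0.64 and 0.51); FOSL1 and JUN are the members outside these lines.

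The 3′ UTRs of the members were also compared. Immediate early messages are often short-lived through AU-rich elements, built from ATTTA, in the 3′ UTR. By the transcripts of GENCODE release 29, 8 of the 9 members held ATTTA at least once in the 3′ UTR, against 73.3% of other measured protein-coding genes. FOS held 5 in 806 bases and IER3 held 6 in 737 bases, denser per base than in 95.2% and 98.2% of those genes. JUNB held 2 in 500 bases, JUN 3 in 1287 bases and FOSL2 9 in 4864 bases. FOSL1, JUND and EGR1 held 1 each, and IER2 held 0. The 30-base windows richest in ATTTA in the densest members are shown beside that of FOSL1, with ATTTA in capitals. They lie at chr14:75282049-75282078 (FOS, plus strand), chr6:30743655-30743684 (IER3, minus strand) and chr11:65892284-65892313 (FOSL1, minus strand).
FOS: acgttttattgtgtttttaATTTATTTAtt
IER3: ttgctcctaattaatATTTAtatgtATTTA
FOSL1: agcctccacagcgagggcagctgctATTTA

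Copies ranged from 0 (IER2) to 6 (IER3) among the lower members, while FOSL1 held 1, JUN 3, FOSL2 9 and the level JUND 1. Whether these copies bear on the differences was not tested. Message stability was not measured.

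The members also differ in where they lie. JUNB (12791496 to 12793315, plus strand), IER2 (13150415 to 13154908, plus strand) and JUND (18279760 to 18281622, minus strand) are all on chromosome 19, JUNB and IER2 being 357 kb apart. EGR1 lies on chromosome 5 from 138465490 to 138469315, plus strand, and IER3 on chromosome 6 from 30743199 to 30744554, minus strand. FOSL2, IER2 and IER3 are each overlapped by an annotated antisense gene, so their reads too may include those of the other strand. None of the 9 spans holds an annotated short RNA gene. The nearest measured protein-coding gene on each side of every member, 18 genes in all, differed by -0.67 to 0.28. By the smaller rule 4 of the 18 passed, all of them lower, against 7.99% of all genes higher and 10.6% lower. At 1.5-fold 1 of the 18 passed, and it was lower, against 1.65% of all genes higher and 3.20% lower. That gene was REEP2, 18521 bases from EGR1, with 5.13 RPKM in the knockdown library and 8.74 RPKM in the wild type library. The neighbours of FOSL1 were CCDC85B, 414 bases away, at 80.0 RPKM in the knockdown library and 66.9 RPKM in the wild type one, and C11orf68, at 25.3 RPKM in the knockdown library and 22.5 RPKM in the wild type library. Their differences of 0.25 and 0.16 were smaller than that of FOSL1. MYSM1 and FGGY, on either side of JUN, differed by -0.01 and 0.07. STX10, 32 bases from IER2, was lower along with it, by -0.44.

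Genes for bZIP proteins that can pair with FOS and JUN, or compete with them, were also looked at. Of 16 listed, 11 were measured, with a median difference of 0.0047. Past 1.5-fold, 0 were higher and 1 was lower, against 1.65% and 3.20% of all genes. By the smaller rule 0 were higher and 2 were lower, against 7.99% and 10.6% of all genes. The lowest was MAFF, a small MAF protein, with 3.79 RPKM in the knockdown library and 6.91 RPKM in the wild type library. JDP2, a repressor that dimerises with JUN proteins and the nearest measured gene to FOS on one side, had 5.13 RPKM in the knockdown library and 7.19 RPKM in the wild type library. BATF3 and ATF3, partners of JUN proteins, were the highest, with differences of 0.20 and 0.14. Rescaling to equal sums put 10 of the 11 below 0, where the median gene also lay.

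Other immediate early genes went in both directions. Of 35 listed, 28 were measured, with a median of 0.07, or -0.12 with equal sums. At 1.5-fold 0 of 28 were higher and 3 were lower, against 1.65% and 3.20% of all genes. By the smaller rule 3 were higher and 6 were lower, against 7.99% and 10.6% of all genes. With equal sums the smaller rule gave 1 higher and 11 lower, where 2.75% of all genes were higher and 25.1% lower. The lowest were PTGS2, the inducible prostaglandin synthase, with a difference of -0.98, and NR4A1, an orphan nuclear receptor, with 17.4 RPKM in the knockdown library and 29.6 RPKM in the wild type library. GEM, a small GTPase that was named because it was the other one past 1.5-fold, had 1.20 RPKM in the knockdown library and 2.40 RPKM in the wild type library. The highest were BTG2, an antiproliferative gene also driven by p53, with a difference of 0.52, and KLF10, a TGF-beta-inducible zinc finger factor, with 37.0 RPKM in the knockdown library and 27.0 RPKM in the wild type library.

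The next list held kinases and transcription factors above the immediate early genes, together with the EGR1 corepressor NAB2 and its relative NAB1. Of 26 listed, 25 were measured, with a median of 0.01. Of the 25, 0 passed 1.5-fold in either direction, against 1.65% of all genes higher and 3.20% lower. By the smaller rule 1 was higher and 4 were lower, against 7.99% and 10.6% of all genes. With equal sums 3 of 25 were 1.5-fold lower, against 6.47% of all genes. The lowest were NAB2, a corepressor that binds EGR1 and is itself an EGR1 target, with 6.10 RPKM in the knockdown library and 9.53 RPKM in the wild type one, and RPS6KA5, the kinase MSK1, with a difference of -0.51. The highest were BRAF, at 6.27 RPKM in the knockdown library and 4.79 RPKM in the wild type one, and MAP2K4, a kinase that activates JNK, with a difference of 0.22. MKL1 and MKL2, the relatives of myocardin now called MRTFA and MRTFB, differed by -0.06 and -0.02.

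Genes that ERK induces as feedback had differences on both sides of 0. All 14 listed were measured, IER3 among them, with a median of -0.09, against 0.01 for all genes. Of the 14, 5 lay above 0 and 9 below, against 52.1% and 47.9% of all genes. With equal sums the median was -0.27, against -0.17 for all genes. There 3 of the 14 lay above 0 and 11 below, at a scaling where most of all genes also lay below 0. At 1.5-fold 0 of 14 were higher and IER3 alone was lower, against 1.65% and 3.20% of all genes. With equal sums 2 were lower, against 6.47% of all genes. ETV4, an ETS factor induced by ERK, had 27.6 RPKM in the knockdown library and 36.6 RPKM in the wild type library. DUSP7 and DUSP5, phosphatases of ERK, were the highest, with differences of 0.34 and 0.25. Genes for the turnover and modification of AP-1 proteins, of which 10 of 11 were measured, had a median of -0.0020. Of the 10, 0 passed 1.5-fold, against 1.65% of all genes higher and 3.20% lower. USP28 differed by -0.15, GSK3B by 0.39 and FBXW7 by 0.20.

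Genes that AP-1 is known to activate included several that were higher in the knockdown library. Of 22 listed, 17 were measured, with a median difference of 0.29. Of the 17, 12 were above 0 and 5 below, against 52.1% and 47.9% of all genes. At 1.5-fold, 5 of 17 were higher, against 1.65% of all genes, and 0 were lower, against 3.20%. After rescaling to equal sums the median was 0.09, 3 of 17 were 1.5-fold higher and 1 was lower, while 0.905% of all genes were higher and 6.47% lower. The list was written with earlier results of these data known, and its genes respond to other pathways as well.

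Among those past 1.5-fold, HMGA2, a chromatin protein, differed by 0.94. CCND1, cyclin D1, had 173 RPKM in the knockdown library and 106 RPKM in the wild type library. IL11, a cytokine of the IL-6 family, had 6.27 RPKM in the knockdown library and 3.69 RPKM in the wild type library. CCND1 and IL11 were named because they passed 1.5-fold, after their values were seen.

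The lowest AP-1 targets were IL8, the chemokine now called CXCL8, which NF-kB also drives, with a difference of -0.54, and MMP2, a gelatinase, with 1.71 RPKM in the knockdown library and 2.42 RPKM in the wild type library. The collagenase and stromelysin genes MMP1, MMP3, MMP9 and MMP10, classic AP-1 targets, were not among the values used here. PLAU, the urokinase gene and a textbook AP-1 target, had 123 RPKM in the knockdown library and 87.5 RPKM in the wild type library, short of 1.5-fold.

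**Figure D4:**
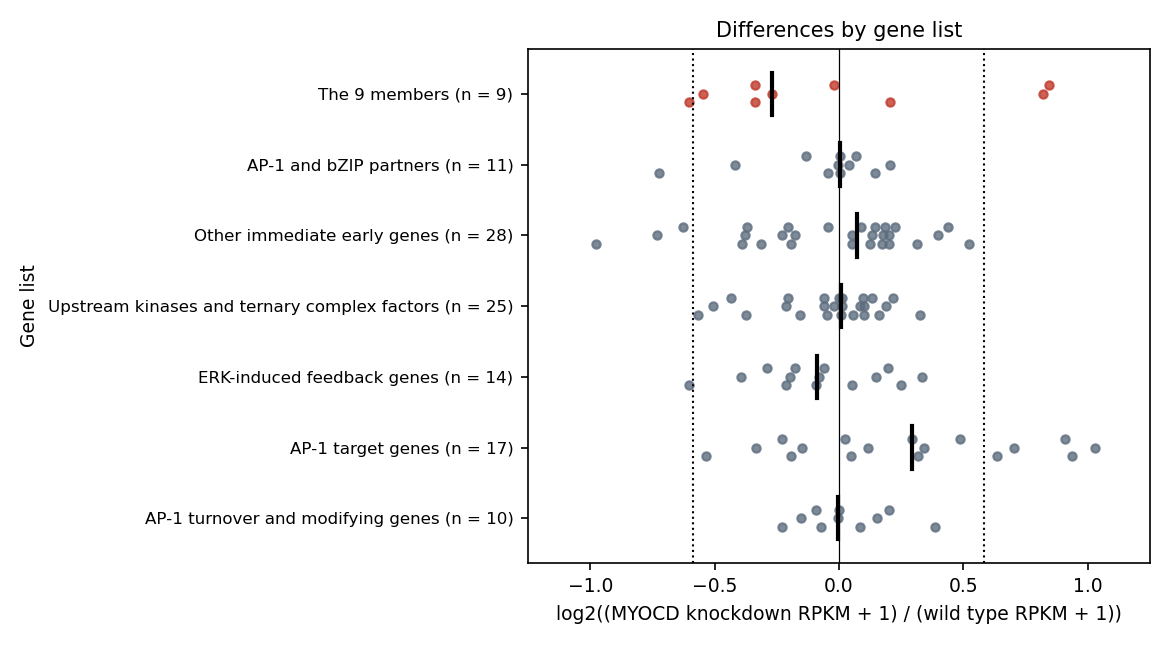
Log2 difference, MYOCD knockdown over wild type, of each measured gene in the 9 members and in 6 gene lists; each dot is a gene, the thick bar is the median of the row, and dotted lines mark 1.5-fold. The members lie apart from each other, with FOSL1 and JUN far to the right, and the AP-1 target list has the median farthest to the right, at 0.29.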

How the data were processed

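RNA-seq libraries of A549 cells, 1 labelled MYOCD knockdown and 1 labelled wild type, were compared. The deposited values are RPKM per locus; the tools TopHat2 2.0.10 and Cufflinks 2.2.1 are listed per the submitters' processing notes, beside the human build GRCh38.p12 and the fly build BDGP5, with no role for any. The sources used here do not give the annotation, read filters or strand use. Without counts the depth is unknown, and low values gave no steps of single reads: over 2212 loci under 2 RPKM, at most 29 log2 ratios shared a window of 0.01. In every locus the higher library had at least 0.652 RPKM.

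Lines with the same gene name were summed, and loci with no name (1909 of 14952) were left out. Differences used a pseudocount of 1, which understates changes of low genes, and a size rule of 1.5-fold; no test was possible. For each member, the 500 genes closest in mean RPKM show how often genes at that level differ as much. The members, the gene lists and the rules were chosen with earlier results of these data known. In each list the 2 highest and 2 lowest measured genes were named, with all 9 members, MYOCD, SRF, MKL1 and MKL2. Some of these are not reported here. Other named genes were chosen after their values were seen. Promoter sequences came from RefSeq (GRCh38.p14), and positions and 3′ UTRs (the principal transcript, or the longest UTR) from GENCODE release 29. Motifs were TGACTCA, TGACATCA, TGACGTCA, the CArG box and the MEF2 site. Alternatives were other pseudocounts, scalings, filters and backgrounds. Python 3.11.15, numpy 2.4.6, pandas 2.3.3 and matplotlib 3.10.9 were used.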

Additional observations from a re-analysis of the deposited data

How the results depend on the processing

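No paired analysis was possible because each group has 1 library, and for the same reason no library could be left out. Each of the 9 members kept the sign of its difference in all 8 alternatives (7 for FOS and EGR1, which a minimum of 5 RPKM removes). Most of these could not have reversed a sign. A change of pseudocount alters the size of a difference and never its sign. Equal sums and equal upper quartiles lower every difference, so they could have reversed only the positive ones. Dropping the filter, or a minimum of 5 RPKM, only changes which genes are kept and cannot move a member's difference. Equal medians shift it by only 0.0009. These alternatives therefore add no support to the member values. FOSL1 (0.65 to 0.87) and JUN (0.63 to 0.87) stayed past 1.5-fold in all 8, so the count of higher members stayed at 2. IER3 stayed past it in 7 of 8, missing it at a pseudocount of 5 (-0.58), and EGR1 passed it in 3 of 7. The count of members 1.5-fold lower was thus 2 at a pseudocount of 0.1, with no pseudocount, and with equal sums, and 0 at a pseudocount of 5, where 1 was at 80% or less of the wild type value. With a minimum of 5 RPKM, 2 were at 80% or less and the median difference of the members was -0.0199. No share of all genes is given for the 80% rule at a pseudocount of 5 or at this minimum. These counts therefore cannot be read against a background. That median was -0.27 as reported, -0.46 with equal sums and -0.16 at a pseudocount of 5. Among all 12158 genes (12081 with no pseudocount), the counts 1.5-fold higher and lower were 345 and 615 at a pseudocount of 0.1, 97 and 125 at 5, 317 and 619 with none, and 110 and 787 with equal sums, against 201 and 389. With a minimum of 5 RPKM 211 of 9296 were lower. Among protein-coding genes 106 of 11006 were higher, or 94 of 10111 among those with no short RNA gene inside. The last background and the absent pseudocount were chosen after seeing the data. Equal sums, taken over all loci with or without a gene name, lowers every difference by about 0.20 before the pseudocount. With FOSB added to the FOS family, the FOSL1 share was 48.7% in the knockdown library and 36.8% in the wild type library.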
